A study of Mus musculus with 16 samples.

Results

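The genes described here make, store and take up fat in the liver: 36 genes of lipogenesis, triglyceride synthesis, the lipid droplet and fatty acid uptake, of 19938 genes measured. They were taken from a list of named genes in 7 roles (4 regulators, 5 genes of fatty acid synthesis, 9 of elongation and desaturation, 6 of esterification, 2 of a lipase family, 7 of the droplet coat and 3 of uptake) by a rule that uses only the genes' names, although the list was drawn up with earlier results of these data known. Each gene stands on 1 row of the array table, the brightest over all arrays, and all 36 were measured. The study compared 7 arrays of Pdgf-c transgenic mice, which carry an added gene for the growth factor PDGF-C, with 9 arrays of wildtype mice, both on the C57BL/6 background and both from liver. The labels call the samples stromal cells, whereas the protocol describes total hepatic RNA, and hepatocyte markers were bright in both groups, with Alb (albumin) at 13.54 ± 0.037 (SD, n = 7) and 13.56 ± 0.078 (SD, n = 9) on the log2 scale. The promoter that drives the transgene and the age and sex of the mice are not given in the sources used here. Nothing in the labels says that each array is a separate animal, so the p-values measure the spread between these samples, which may be technical in part.

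The liver makes fatty acids from citrate. ATP citrate lyase releases acetyl-CoA, acetyl-CoA carboxylase turns it into malonyl-CoA, fatty acid synthase builds palmitate from it, and malic enzyme supplies NADPH. Elongases and desaturases then lengthen the chain and add double bonds, a chain of acyltransferases joins fatty acids to glycerol, and the triglyceride is stored in droplets coated by perilipins and CIDE proteins or secreted in lipoproteins. The transcription factors SREBP-1c (from Srebf1) and ChREBP (from Mlxipl) drive most of these genes after a meal, and PPARγ (from Pparg) adds to them in fatty liver.

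All arrays correlated closely with each other, at Pearson's r of 0.976 to 0.991 over 35557 rows. Wildtype array 9 stood apart on the second principal component, at -54.4 against -25.0 to 28.8 for all other arrays, and transgenic array 1 lay at the opposite end, so results that move without these arrays are given both ways. The Pdgfc row itself read 6.45 ± 0.20 (SD, n = 7) in the transgenic and 6.01 ± 0.156 (SD, n = 9) in the wildtype arrays, a difference of 0.44 ± 0.0873 (SE; limma adjusted p = 0.00132), with overlapping groups. Depth cannot be given for arrays. Of the 36 genes, 35 had a mean above 5.25, the median of all rows, and the exception was Cidea.

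The pathway did not move as a block. In the transgenic livers 13 genes were higher, 5 were lower and 18 did not pass an adjusted p of 0.05. Over all 19938 genes the same test called 23.2% (12.1% higher and 11.1% lower), and over the 11557 genes above the median brightness it called 33.8% (16.4% higher and 17.4% lower). The higher share of the lipid genes, 36.1%, lay above both backgrounds and the lower share, 13.9%, between them, which describes a list chosen with results known and is no test of it. The median difference was 0.10 on the log2 scale, against -0.04 for all genes, and single differences ran from -0.70 for Elovl3 to 2.05 for Lpl. Calls of at least 1.5-fold numbered 5 higher and 1 lower, against backgrounds of 3.78% and 0.868% of all genes and 5.06% and 1.36% of those above the median brightness. The groups did not overlap for 6 genes (Acaca, Elovl6, Scd1, Scd2, Fabp4 and Lpl), all higher, against 5.43% of all genes and 7.64% of those above the median brightness. It was 0 for lower genes, against 3.65% and 6.11%. With each array centred on its own median, which moves the median of all genes to -0.09, the calls were 10 higher and 7 lower, while those over all genes went from 2422 higher and 2209 lower to 1860 higher and 3350 lower.

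**Figure D1:**
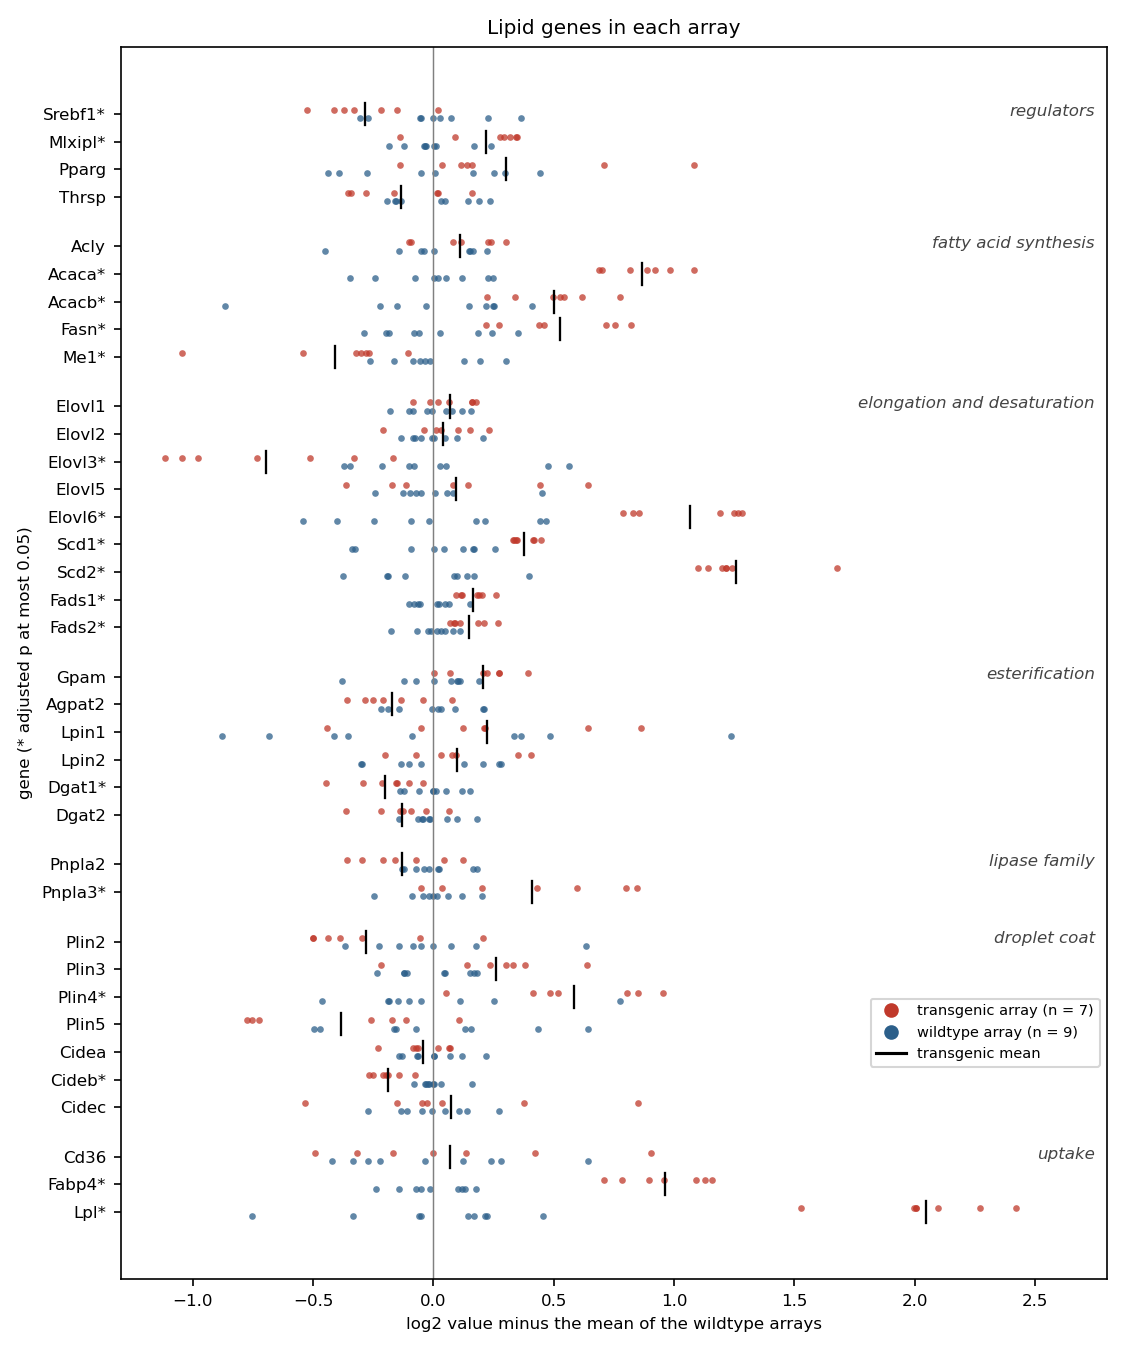
Log2 value of each of the 36 genes in every array, measured from that gene's wildtype mean (x axis), with the genes ordered by role (y axis). Red points are the 7 transgenic and blue points the 9 wildtype arrays, black ticks are transgenic means, and an asterisk marks a limma adjusted p of at most 0.05. The transgenic means of Lpl (2.05), Scd2 (1.26) and Elovl6 (1.07) stand farthest to the right and that of Elovl3 (-0.70) farthest to the left.

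Since many of these genes are textbook targets of SREBP-1c and ChREBP, the sequence before their starts is shown for some of the members that moved. RefSeq's table (GRCm38.p6) held a start for 27 of the 36 genes, with 40 windows of 250 bases before the start, among 32851 windows of that length. The motifs searched on both strands were the sterol regulatory element TCACNCCAC, the E-box CACGTG, the NF-Y box CCAAT, the GC box GGGCGG and the TATA box TATAAA. Capitals mark their matches. Each window runs 5′ to 3′ on the gene's strand, the last base lying just before the start. Fasn (chr11:120824548-120824797, minus strand), Acacb (chr5:114165268-114165517, plus), Elovl6 (chr3:129532136-129532385, plus) and Pnpla3 (chr15:84167566-84167815, plus) were among the genes that rose, as was Mlxipl (chr5:135106641-135106890, plus, 1 of its 2 windows), and Me1 (chr9:86695915-86696164, minus, 1 of its 2 windows) fell.
Fasn: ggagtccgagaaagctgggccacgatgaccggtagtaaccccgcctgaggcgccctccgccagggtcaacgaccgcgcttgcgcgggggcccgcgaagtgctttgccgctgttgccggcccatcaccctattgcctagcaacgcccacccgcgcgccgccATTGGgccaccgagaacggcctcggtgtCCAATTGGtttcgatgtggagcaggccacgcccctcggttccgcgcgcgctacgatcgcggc
Acacb: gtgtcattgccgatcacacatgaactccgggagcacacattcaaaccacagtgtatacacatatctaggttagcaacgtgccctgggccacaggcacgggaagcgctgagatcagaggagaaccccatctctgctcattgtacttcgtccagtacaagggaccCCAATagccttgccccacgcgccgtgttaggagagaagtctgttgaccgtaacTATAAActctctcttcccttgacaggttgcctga
Elovl6: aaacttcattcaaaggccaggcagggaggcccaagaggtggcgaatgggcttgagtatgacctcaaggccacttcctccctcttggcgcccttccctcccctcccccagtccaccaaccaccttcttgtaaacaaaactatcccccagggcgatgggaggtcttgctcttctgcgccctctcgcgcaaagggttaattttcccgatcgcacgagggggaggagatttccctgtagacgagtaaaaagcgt
Pnpla3: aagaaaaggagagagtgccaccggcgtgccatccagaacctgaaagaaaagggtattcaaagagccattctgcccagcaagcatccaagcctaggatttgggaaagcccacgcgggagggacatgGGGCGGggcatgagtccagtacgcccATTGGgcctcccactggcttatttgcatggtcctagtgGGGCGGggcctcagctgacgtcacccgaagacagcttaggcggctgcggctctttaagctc
Mlxipl: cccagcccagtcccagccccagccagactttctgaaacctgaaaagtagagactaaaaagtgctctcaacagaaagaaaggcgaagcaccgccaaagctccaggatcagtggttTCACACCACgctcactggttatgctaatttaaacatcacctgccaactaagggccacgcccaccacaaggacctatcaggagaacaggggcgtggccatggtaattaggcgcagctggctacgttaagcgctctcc
Me1: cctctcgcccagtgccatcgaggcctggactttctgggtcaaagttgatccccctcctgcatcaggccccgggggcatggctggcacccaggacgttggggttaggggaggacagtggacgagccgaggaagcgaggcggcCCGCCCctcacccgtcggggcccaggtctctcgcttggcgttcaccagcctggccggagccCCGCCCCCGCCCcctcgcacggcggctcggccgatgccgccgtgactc

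The Fasn window held 3 NF-Y boxes, at bases 90 to 86, 62 to 58 and 59 to 55 before the start, of which the last 2 share 2 bases on opposite strands. The Acacb window held an NF-Y box (87 to 83) and a TATA box (34 to 29), and the Elovl6 window held none of the 5 motifs. The Acaca window, not printed, held none either. In Pnpla3 there was an NF-Y box at 99 to 95 between GC boxes at 125 to 120 and 61 to 56. The printed Mlxipl window held the only sterol regulatory element among the 40 windows, at bases 136 to 128, against 1.05% of all windows. The other Mlxipl window held an E-box (98 to 93) and an NF-Y box (173 to 169). It also held GC boxes (188 to 183 and 38 to 33). The printed Me1 window held GC boxes alone, at 109 to 104, 48 to 43 and 42 to 37, and the other Me1 window an NF-Y box alone (208 to 204). Over the 40 windows the NF-Y box was in 19 (47.5%, against 33.8% of all windows), the GC box in 22 (55.0%, against 32.7%), the E-box in 3 (7.5%, against 6.02%) and the TATA box in 3 (7.5%, against 12.4%). These are letter matches, several windows belong to the same gene, and they say nothing on the binding of any factor. Whether these RefSeq starts, that of Acaca among them, are the ones used in the liver was not tested.

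The regulators moved little and in both directions. Srebf1, the source of SREBP-1c, ran from 9.93 through a median of 10.13 to 10.48 in the transgenic arrays and from 10.15 through 10.46 to 10.82 in the wildtype arrays. Transgenic arrays 1, 3, 6 and 7 lay below the lowest wildtype array and the other transgenic arrays inside the wildtype range. It fell by 0.28 ± 0.0927 (SE; 1.22-fold lower, limma adjusted p = 0.0386). Mlxipl, the source of ChREBP, ran from 9.04 through 9.48 to 9.53 in the transgenic and from 9.0 through 9.15 to 9.42 in the wildtype arrays. Transgenic arrays 1, 3, 4, 5 and 7 lay above every wildtype array, whereas array 6 was near the bottom of the wildtype range. It rose by 0.22 ± 0.0739 (SE; 1.16-fold, adjusted p = 0.0468). Both calls were marginal. That of Srebf1 was lost in 14 of 25 alternative analyses (adjusted p from 0.0144 to 0.104), among them leaving out transgenic array 1, 3, 6 or 7 or wildtype array 1, 3, 4, 5 or 8, or transgenic array 1 and wildtype array 9 together (0.0854). That of Mlxipl was lost in 16 (0.00376 to 0.111), among them leaving out transgenic array 1, 3, 4, 5 or 7 or wildtype array 1, 2, 3, 4, 5, 7 or 8.

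Pparg, whose product drives storage genes in fat cells, differed by 0.30 ± 0.169 (SE; adjusted p = 0.258). Its transgenic arrays ran from 7.23 through 7.51 to 8.45, with arrays 6 and 7 (8.45 and 8.08) above every wildtype array (6.93 to 7.81) and the other arrays inside the wildtype range. Thrsp (Spot 14), a small protein induced by thyroid hormone and carbohydrate along with the lipogenic enzymes, differed by -0.14 ± 0.0836 (SE; adjusted p = 0.307).

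Of the 5 genes of fatty acid synthesis 3 were higher, 1 was lower and 1 was not called. Acaca encodes acetyl-CoA carboxylase 1, the cytosolic enzyme that makes the malonyl-CoA used for synthesis. It read from 9.45 through 9.65 to 9.85 in the transgenic and from 8.41 through 8.78 to 9.01 in the wildtype arrays, so every transgenic array was above every wildtype one. It rose by 0.87 ± 0.0837 (SE; 1.83-fold, limma adjusted p = 5.58e-07), and a second row of the same gene gave 0.84 ± 0.102 (SE; adjusted p = 8.50e-06). Acacb encodes the mitochondrial isoform, whose malonyl-CoA blocks fatty acid entry for oxidation. Its transgenic arrays read from 8.20 through 8.51 to 8.76 and its wildtype arrays from 7.11 through 8.13 to 8.39. All transgenic arrays but 4 and 5 exceeded the highest wildtype array, and wildtype array 1, at 7.11, was far below the rest. Acacb rose by 0.50 ± 0.145 (SE; 1.42-fold, adjusted p = 0.0193).

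Fasn, fatty acid synthase, ran from 10.98 through 11.21 to 11.58 in the transgenic and from 10.47 through 10.70 to 11.11 in the wildtype arrays. Transgenic arrays 5 and 6 lay within the wildtype range and the other arrays above it. It rose by 0.53 ± 0.105 (SE; 1.44-fold, adjusted p = 0.00132). Me1, cytosolic malic enzyme, went the other way: the transgenic arrays read from 10.32 through 11.06 to 11.26 and the wildtype arrays from 11.10 through 11.33 to 11.66. All transgenic arrays but array 6 were below the lowest wildtype array, with transgenic array 1 lowest. Me1 fell by 0.41 ± 0.111 on the log2 scale (SE; 1.33-fold lower, adjusted p = 0.0131), and its second row also gave -0.41 ± 0.115 (SE; adjusted p = 0.0167). Acly, ATP citrate lyase, differed by 0.11 ± 0.0883 (SE; adjusted p = 0.454). Averaged over the 5 genes, each measured from its own wildtype mean, the transgenic arrays lay at 0.17 to 0.42 and the wildtype arrays at -0.44 to 0.26.

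**Figure D2:**
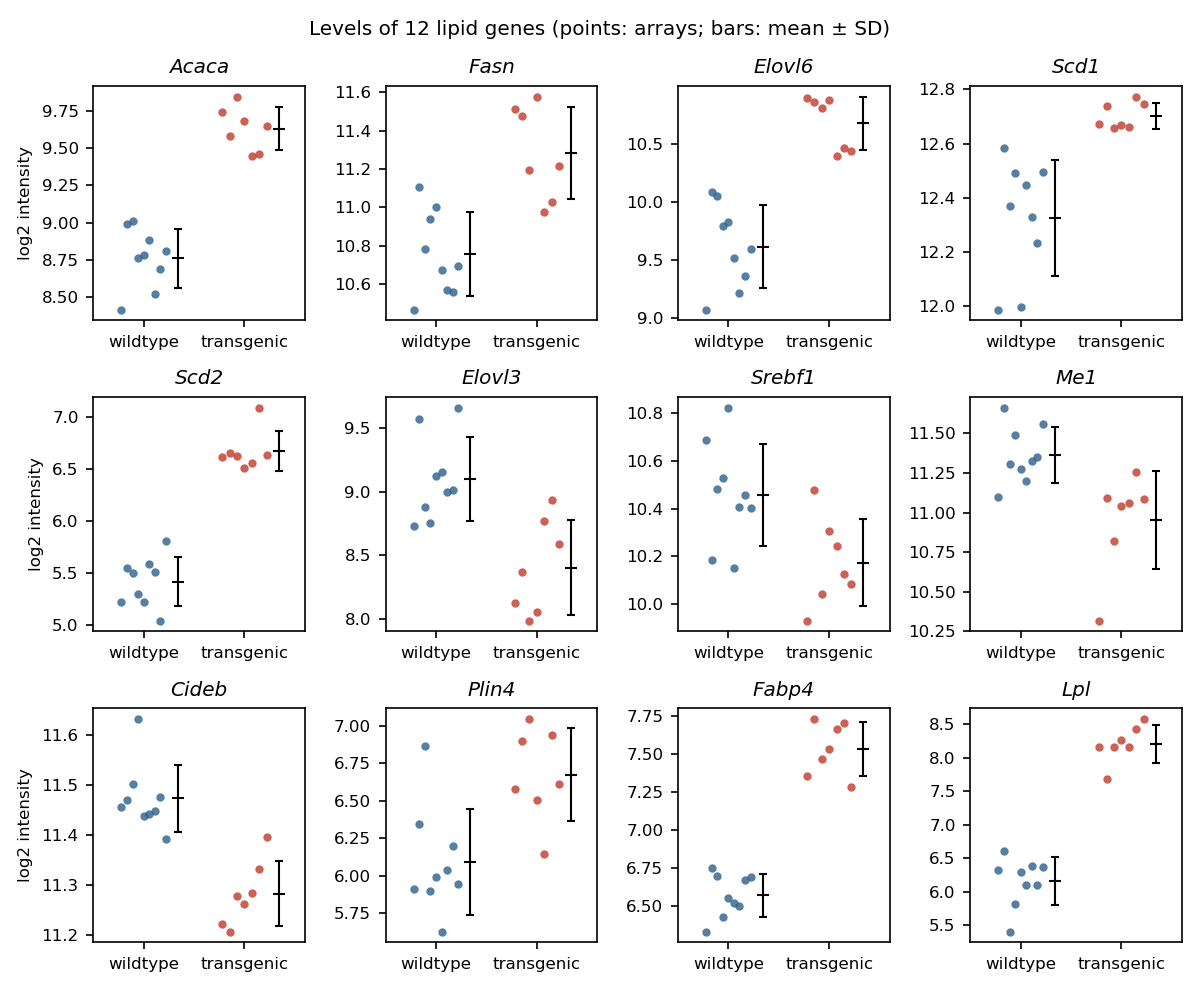
Log2 intensity (y axis) of 12 lipid genes, 1 panel per gene, in 9 wildtype and 7 transgenic arrays (points), with each group's mean ± SD as a bar; the y axes differ between panels and do not start at 0. Acaca, Elovl6, Scd1, Scd2, Fabp4 and Lpl show separate groups, while the groups overlap in the other panels.

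Of the 9 elongases and desaturases 5 were higher (55.6%), 1 was lower (11.1%) and 3 were not called. Over all genes 12.1% were higher and 11.1% lower, and over genes above the median brightness 16.4% and 17.4%. As the genes were chosen with results known, these shares are no test of the role. Elovl6 extends palmitate to stearate and is a classic SREBP-1c target. Its transgenic arrays read from 10.40 through 10.81 to 10.89 and its wildtype arrays from 9.07 through 9.59 to 10.08, with no overlap. Within the transgenic group arrays 1 to 4 sat at 10.81 to 10.89 and arrays 5 to 7 at 10.40 to 10.47. Elovl6 rose by 1.07 ± 0.141 (SE; 2.09-fold, limma adjusted p = 2.23e-05). Elovl3, an elongase of saturated and monounsaturated very long chains, read from 7.98 through 8.37 to 8.93 in the transgenic and from 8.73 through 9.02 to 9.66 in the wildtype arrays. Transgenic arrays 5 and 6 reached the wildtype range and the other arrays lay below it. Elovl3 fell by 0.70 ± 0.159 on the log2 scale (SE; 1.62-fold lower, adjusted p = 0.00396).

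The elongases that did not pass the test were Elovl1 (0.07 ± 0.0536 SE, adjusted p = 0.432), Elovl2 (0.04 ± 0.0588 SE, adjusted p = 0.711) and Elovl5 (0.09 ± 0.125 SE, adjusted p = 0.672). Elovl1 serves saturated very long chains, and Elovl2 and Elovl5 lengthen polyunsaturated ones. Elovl5 was highest among the wildtype arrays in array 9, at 10.74.

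Stearoyl-CoA desaturases put the first double bond into stearate and palmitate. Scd1, the main liver form, read from 12.66 through 12.67 to 12.77 in the transgenic and from 11.99 through 12.37 to 12.58 in the wildtype arrays, with no overlap. The transgenic arrays were tightly grouped, with an SD of 0.048 against 0.215 in the wildtype arrays, and Scd1 rose by 0.38 ± 0.0761 (SE; 1.30-fold, adjusted p = 0.00151). Scd2, the form known from brain and from the liver before weaning, read from 6.52 through 6.63 to 7.09 and from 5.04 through 5.50 to 5.81, again with no overlap. Transgenic array 6 was the highest and the other transgenic arrays lay between 6.52 and 6.66. Scd2 rose by 1.26 ± 0.105 (SE; 2.39-fold, adjusted p = 9.31e-08).

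The desaturases of polyunsaturated chains rose by smaller steps. Fads1, the delta-5 desaturase, read from 11.23 through 11.32 to 11.40 in the transgenic and from 11.04 through 11.15 to 11.29 in the wildtype arrays, and rose by 0.17 ± 0.0381 (SE; 1.12-fold, adjusted p = 0.00409). Fads2, the delta-6 desaturase, read from 11.85 through 11.89 to 12.05 and from 11.61 through 11.80 to 11.89, and rose by 0.15 ± 0.0406 (SE; 1.11-fold, adjusted p = 0.0158). In each, 4 transgenic arrays lay above every wildtype array. Centring of the arrays ended both calls (adjusted p = 0.0778 for Fads1 and 0.156 for Fads2), and quantile normalization (0.0652) and a fit without a trend (0.0504) also ended that of Fads2. The range over all 25 alternatives was 0.000925 to 0.0778 for Fads1 and 0.00828 to 0.156 for Fads2.

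In esterification, which joins fatty acids to glycerol, 1 of 6 genes (16.7%) was lower and none higher. The lower share lay between those over all genes (11.1%) and over genes above the median brightness (17.4%). The higher shares there were 12.1% and 16.4%. Dgat1, one of the acyltransferases of the final step, read from 7.82 through 8.11 to 8.22 in the transgenic and from 8.12 through 8.26 to 8.42 in the wildtype arrays. Transgenic arrays 2 and 6 lay inside the wildtype range and the other arrays below it. Dgat1 fell by 0.20 ± 0.0591 on the log2 scale (SE; 1.15-fold lower, limma adjusted p = 0.0219), a call lost without transgenic array 1 and wildtype array 9 together (adjusted p = 0.0572; 0.00514 to 0.110 over all alternatives). Dgat2, the other enzyme of that step, differed by -0.13 ± 0.0546 (SE; adjusted p = 0.116), and passed with quantile normalization (0.0329), without transgenic array 4 (0.0414) and with centring (0.0171; 0.0171 to 0.251 over all).

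The genes of the earlier steps did not pass on all arrays. Gpam, the mitochondrial glycerol-3-phosphate acyltransferase that starts the chain, differed by 0.21 ± 0.0739 (SE; adjusted p = 0.0620), with transgenic arrays from 9.82 to 10.21 and wildtype arrays from 9.43 to 10.00. Gpam passed without wildtype array 9 (0.23, adjusted p = 0.0375), without transgenic array 3 (0.0352) and with dim rows left out (0.0371), the range over all alternatives being 0.0320 to 0.142. Agpat2, which adds the second fatty acid, differed by -0.17 ± 0.0729 (SE; adjusted p = 0.118), and passed without transgenic array 2 (0.0438) and with centring (0.0366; 0.0157 to 0.240 over all). The lipins remove the phosphate to give diacylglycerol. Lpin1 differed by 0.22 ± 0.261 (SE; adjusted p = 0.626) and Lpin2 by 0.10 ± 0.103 (SE; adjusted p = 0.582). Lpin1 spread widely within each group, from 9.78 to 11.09 in the transgenic and from 9.35 to 11.46 in the wildtype arrays, so differences of the size seen for Fasn could not be resolved in it.

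The lipase family split. Pnpla3, a lipid droplet protein induced by SREBP-1c and known from human fatty liver, read from 5.54 through 6.02 to 6.43 in the transgenic and from 5.34 through 5.59 to 5.79 in the wildtype arrays. Transgenic arrays 1, 2, 4 and 5 lay above every wildtype array and arrays 3, 6 and 7 among them. It rose by 0.41 ± 0.120 (SE; 1.33-fold, adjusted p = 0.0224). The call was lost without transgenic array 4 (adjusted p = 0.0562), without array 5 (0.0517) and without transgenic array 1 and wildtype array 9 together (0.0700), the range over all alternatives being 0.00544 to 0.0989. Pnpla2, adipose triglyceride lipase, which starts the breakdown of stored triglyceride, differed by -0.13 ± 0.0699 (SE; adjusted p = 0.218).

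Of the 7 droplet coat genes 1 was higher and 1 lower (14.3% each). These shares lay between those over all genes (12.1% higher, 11.1% lower) and over genes above the median brightness (16.4% higher, 17.4% lower). Cideb, a hepatocyte droplet protein that also takes part in VLDL lipidation, read from 11.21 through 11.28 to 11.39 in the transgenic and from 11.39 through 11.46 to 11.63 in the wildtype arrays. Transgenic array 7 just touched the wildtype range and the other arrays lay below it. Cideb fell by 0.19 ± 0.0350 on the log2 scale (SE; 1.14-fold lower, limma adjusted p = 0.000632). Plin4, a perilipin of nascent droplets, read from 6.14 through 6.61 to 7.05 and from 5.63 through 5.99 to 6.87. Wildtype array 3, at 6.87, lay among the transgenic arrays and transgenic array 5, at 6.14, among the wildtype ones, and Plin4 rose by 0.58 ± 0.155 (SE; 1.498-fold, under the 1.5-fold line, adjusted p = 0.0119).

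Plin2, the main coat protein of liver droplets, differed by -0.28 ± 0.127 (SE; adjusted p = 0.141). It read from 10.35 through 10.47 to 11.06 in the transgenic and from 10.49 through 10.80 to 11.49 in the wildtype arrays, array 9 being the wildtype maximum. Plin5, which ties droplets to mitochondria, differed by -0.38 ± 0.170 (SE; adjusted p = 0.135), and Plin3, which coats small droplets, by 0.26 ± 0.0966 (SE; adjusted p = 0.0735). Plin3 passed without transgenic array 1, its lowest transgenic array at 7.92 (adjusted p = 0.00562; 0.00562 to 0.172 over all alternatives). Plin2 passed without transgenic array 7 (adjusted p = 0.0424; 0.0424 to 0.296 over all). Cidea and Cidec, droplet fusion proteins of fat cells that are raised in fatty liver, differed by -0.04 ± 0.0682 (SE; adjusted p = 0.729) and 0.07 ± 0.145 (SE; adjusted p = 0.793). Cidec ran from 5.49 to 6.87 in the transgenic arrays, wider than the 5.76 to 6.30 of the wildtype arrays, with array 5 lowest and array 6 highest.

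Uptake held the largest rise. Lpl, lipoprotein lipase, frees fatty acids from circulating triglyceride and is low in the adult hepatocyte. It read from 7.68 through 8.16 to 8.58 in the transgenic and from 5.40 through 6.30 to 6.61 in the wildtype arrays. Every transgenic array was above every wildtype array, and Lpl rose by 2.05 ± 0.152 (SE; 4.13-fold, limma adjusted p = 1.85e-08). Fabp4, the fatty acid binding protein of fat cells, macrophages and capillary endothelium, read from 7.28 through 7.53 to 7.73 and from 6.33 through 6.56 to 6.75. The groups did not overlap, and Fabp4 rose by 0.96 ± 0.0777 (SE; 1.95-fold, adjusted p = 5.94e-08). Cd36, the fatty acid translocase, differed by 0.07 ± 0.186 (SE; adjusted p = 0.850), with transgenic arrays from 7.22 to 8.62 and wildtype arrays from 7.29 to 8.36, array 6 and array 9 being the respective maxima. Without transgenic array 6 the sign of the Cd36 difference turned (-0.07).

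Markers of other cell types moved with these genes. In bulk liver RNA fewer cells of a type and less RNA per cell cannot be told apart. For scale, the same test called 12.1% of all genes higher and 11.1% lower. Among genes above the median brightness it called 16.4% higher and 17.4% lower. The 6 fibroblast and stellate cell markers were all higher, their mean log2 level being 8.46 to 8.67 in the transgenic and 5.88 to 6.49 in the wildtype arrays, with the largest difference in Lum (3.56 ± 0.174 SE). Of 8 macrophage markers 7 were higher (6.88 to 7.36 against 5.95 to 6.40), led by Cx3cr1 (2.2 ± 0.106 SE), while all 4 Kupffer cell markers were lower (5.41 to 6.68 against 7.69 to 8.61), led by Cd5l (-2.83 ± 0.296 SE). Of 6 capillary endothelium markers 4 were higher (6.66 to 7.03 against 5.81 to 6.17), led by Cd34 (3.14 ± 0.0803 SE). Emcn (1.23 ± 0.117 SE), Plvap (0.67 ± 0.103 SE) and Pecam1 (0.35 ± 0.0929 SE) rose less. Cdh5 (-0.06 ± 0.0665 SE) and Rgcc (0.15 ± 0.0847 SE) were not called, so the shift of the list mean rests largely on Cd34. The part of these cell types in the rises of Lpl, Fabp4 and Scd2 was not tested. Of 5 measured adipocyte markers none was higher and Lipe was lower, their mean level was 4.58 to 4.74 against 4.67 to 4.86, and Adipoq, which defines fat cells, lay below the 20th percentile of the table in both groups (3.11 and 3.15). The mean of the 6 hepatocyte markers was 13.29 to 13.34 against 13.31 to 13.41, with 1 higher and 2 lower. Their group means, 12.99 to 13.60, lay near the top of the table (maximum 14.7), so they do not measure the share of hepatocytes.

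**Figure D3:**
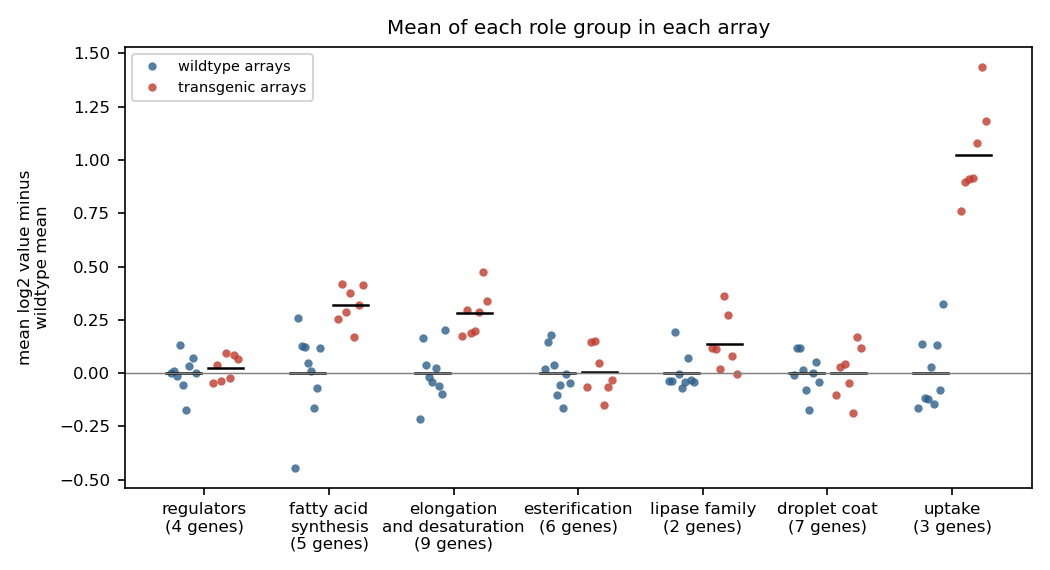
Mean over the genes of each role in each array, each gene measured from its own wildtype mean (y axis, log2 units), for 7 transgenic and 9 wildtype arrays (points), with group means as lines. Uptake (0.76 to 1.44 in the transgenic arrays) is separate from the wildtype arrays, whereas esterification and the droplet coat overlap them.

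Averaged over its genes in each array, uptake lay at 0.76 to 1.44 in the transgenic and -0.16 to 0.32 in the wildtype arrays. Elongation and desaturation lay at 0.17 to 0.47 against -0.22 to 0.20, touching at their edges. The regulators (-0.05 to 0.09 against -0.17 to 0.13), esterification (-0.15 to 0.15 against -0.17 to 0.18) and the droplet coat (-0.19 to 0.17 against -0.17 to 0.12) covered the same range in both groups.

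Whether relatives within a family changed unequally was tested on the difference between both genes within each array, which cancels array scaling, with two-sided exact permutation tests over 11440 splits, adjusted over 15 pairs. The test was passed by 6 of the 15 pairs. Elovl3 and Elovl6 parted most, with changes of -0.70 and 1.07, a difference of -1.76 ± 0.257 (SE; exact adjusted p = 0.000437). Scd2 rose more than Scd1, by 0.88 ± 0.0866 (SE; exact adjusted p = 0.000437). The change of Plin3 exceeded that of Plin2 by 0.54 ± 0.120 (SE; exact adjusted p = 0.000437), although neither gene passed the limma test alone. All of these pairs had a raw exact permutation p of 8.74e-05, the smallest these groups can give, so their p-values do not rank them. The change of Elovl1 exceeded that of Elovl3 by 0.77 ± 0.169 (SE; exact adjusted p = 0.00295).

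Acacb rose less than Acaca (-0.37 ± 0.114 SE, exact adjusted p = 0.0201). The changes of Pnpla2 (-0.13) and Pnpla3 (0.41) had opposite signs, a difference of -0.54 ± 0.196 (SE; exact adjusted p = 0.0201). Both of these were lost without transgenic array 1 and wildtype array 9 together (exact adjusted p = 0.0783 each). No unequal change was resolved between Fads2 and Fads1 (-0.02 ± 0.0288 SE), Dgat1 and Dgat2 (-0.07 ± 0.0805 SE), Elovl2 and Elovl5 (-0.06 ± 0.107 SE), Lpin2 and Lpin1 (-0.12 ± 0.293 SE) or Plin5 and Plin2 (-0.10 ± 0.304 SE). The interval is narrow for the FADS and DGAT pairs and wide for the lipins and for Plin5. The CIDE pairs (Cidea against Cideb 0.15 ± 0.0625 SE, Cidec against Cideb 0.26 ± 0.165 SE, Cidec against Cidea 0.11 ± 0.180 SE) and Plin4 against Plin3 (0.33 ± 0.215 SE) did not pass either. Cidec against Cideb passed without transgenic array 5 (exact adjusted p = 0.0234) and Cidea against Cideb without wildtype array 5 (exact adjusted p = 0.0206).

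**Figure D4:**
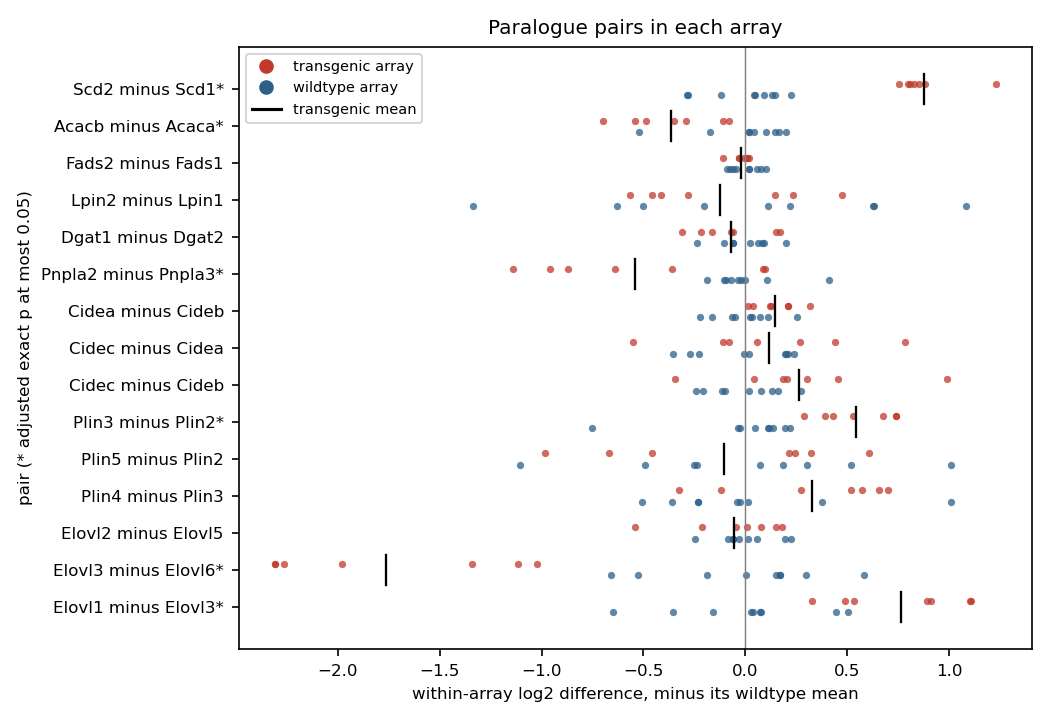
Difference between both genes of each of the 15 family pairs within every array, measured from its wildtype mean in log2 units (x axis), for transgenic (red) and wildtype (blue) arrays, with transgenic means as black ticks and an asterisk for an exact adjusted p of at most 0.05. Elovl3 minus Elovl6 (-1.76) and Scd2 minus Scd1 (0.88) have the means farthest from 0 in either direction.

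Within the groups, no correlation of Srebf1 with its textbook targets passed the test. Over 7 and 9 arrays even r = -0.82 did not pass, so correlations of ordinary strength could not be resolved. Over 20 within-group relations with 10 genes (Fasn, Acaca, Acacb, Acly, Me1, Scd1, Elovl6, Gpam, Pnpla3 and Thrsp), Pearson's r ran from -0.44 to 0.62 over the 7 transgenic arrays and from -0.82 to 0.02 over the 9 wildtype arrays. None passed (smallest exact permutation adjusted p = 0.178), and 1 relation had an unadjusted exact p below the threshold. That was Scd1 over the wildtype arrays, with r = -0.82 (exact permutation p = 0.00891) and Spearman's rho = -0.68 (exact permutation p = 0.0503). Without the 2 arrays farthest from the Srebf1 median this r was -0.78. Other relations moved more under the same cut. Over the 10 genes r then ran from -0.86 to 0.88 in the transgenic and from -0.83 to -0.02 in the wildtype arrays.

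Genes of the same pathways outside the 36 moved mostly the other way. Of 71 such genes 66 were measured, and 5 (7.58%) were higher, 29 (43.9%) lower and 32 not called, with a median difference of -0.17. The backgrounds were 12.1% higher and 11.1% lower over all genes, and 16.4% higher and 17.4% lower over those above the median brightness. This list too was chosen with earlier results known, so its shares describe it and are no test of the pathways. Among 16 droplet proteins and lipases 11 were lower and 1 higher, and among 13 genes of uptake and plasma lipases 8 were lower and 2 higher. Sterol and lipid sensing (4 of 11 lower, none higher), precursor supply (3 of 14 lower, 1 higher) and glyceride synthesis (3 of 12 lower, 1 higher) held fewer calls. The groups did not overlap for 18 lower and 3 higher genes, against 3.65% and 5.43% of all genes. Over genes above the median brightness these shares were 6.11% and 7.64%.

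The 5 genes that rose were led by Fabp5, the epidermal fatty acid binding protein, which also marks macrophages. It read from 9.86 through 10.23 to 10.76 in the transgenic and from 7.44 through 8.68 to 9.52 in the wildtype arrays, without overlap, and rose by 1.70 ± 0.245 (SE; 3.24-fold, limma adjusted p = 5.78e-05), with 1.72 ± 0.249 (SE) in its second row. Gpat2, a glycerol-3-phosphate acyltransferase known from testis, read from 6.02 to 6.77 against 5.16 to 5.51 and rose by 1.16 ± 0.0891 (SE; 2.23-fold, adjusted p = 3.12e-08). The other three were Acsl4, which activates arachidonate (0.50 ± 0.0591 SE), the lipoprotein remnant receptor Lrp1 (0.36 ± 0.0708 SE) and the lysosomal lipase Lipa (0.25 ± 0.0687 SE, adjusted p = 0.0146). Centring of the arrays ended the call of Lipa (0.20, adjusted p = 0.0802; 0.000471 to 0.0802 over all alternatives), which left 4 genes higher.

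The largest fall was that of Angptl4, a secreted inhibitor of lipoprotein lipase. It read from 8.16 through 8.53 to 8.87 in the transgenic and from 9.24 through 9.55 to 9.88 in the wildtype arrays, without overlap, and fell by 0.94 ± 0.101 on the log2 scale (SE; 1.92-fold lower, adjusted p = 1.93e-06). Lmf1, the factor that matures lipoprotein lipase, fell by 0.63 ± 0.0541 (SE; adjusted p = 1.22e-07), and the endothelial lipase Lipg fell by 0.73 ± 0.180 (SE; adjusted p = 0.00677). Gpd1, which makes glycerol-3-phosphate, fell by 0.74 ± 0.0992 (SE; adjusted p = 2.57e-05), and Gpat3, another enzyme of the first acylation, fell by 0.65 ± 0.134 (SE; adjusted p = 0.00194). Fitm1, which helps bud droplets from the endoplasmic reticulum, fell by 0.76 ± 0.184 (SE; adjusted p = 0.00631).

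Of the regulators and export genes, Nr1h3 (LXRα, which induces Srebf1) fell by 0.51 ± 0.0642 (SE; adjusted p = 1.30e-05) and Mttp, which loads triglyceride onto apolipoprotein B, by 0.37 ± 0.0460 (SE; adjusted p = 1.22e-05), both without overlap. Lipe, hormone-sensitive lipase, fell by 0.26 ± 0.0851 (SE; adjusted p = 0.0391), a call lost without any 1 of transgenic arrays 1, 3, 4 and 6 or wildtype arrays 1, 4, 6, 7 and 8, and without transgenic array 1 and wildtype array 9 together (0.0731). Insig1, which holds SREBP in the endoplasmic reticulum and is itself an SREBP target, differed by -0.13 ± 0.101 (SE; adjusted p = 0.437), and Srebf2, the cholesterol branch's factor, by 0.07 ± 0.0454 (SE; adjusted p = 0.331). Plin1, the perilipin of fat cells, differed by 0.09 ± 0.108 (SE; adjusted p = 0.652) and Mogat1, a monoacylglycerol acyltransferase raised in fatty liver, by -0.14 ± 0.160 (SE; adjusted p = 0.605).

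**Figure D5:**
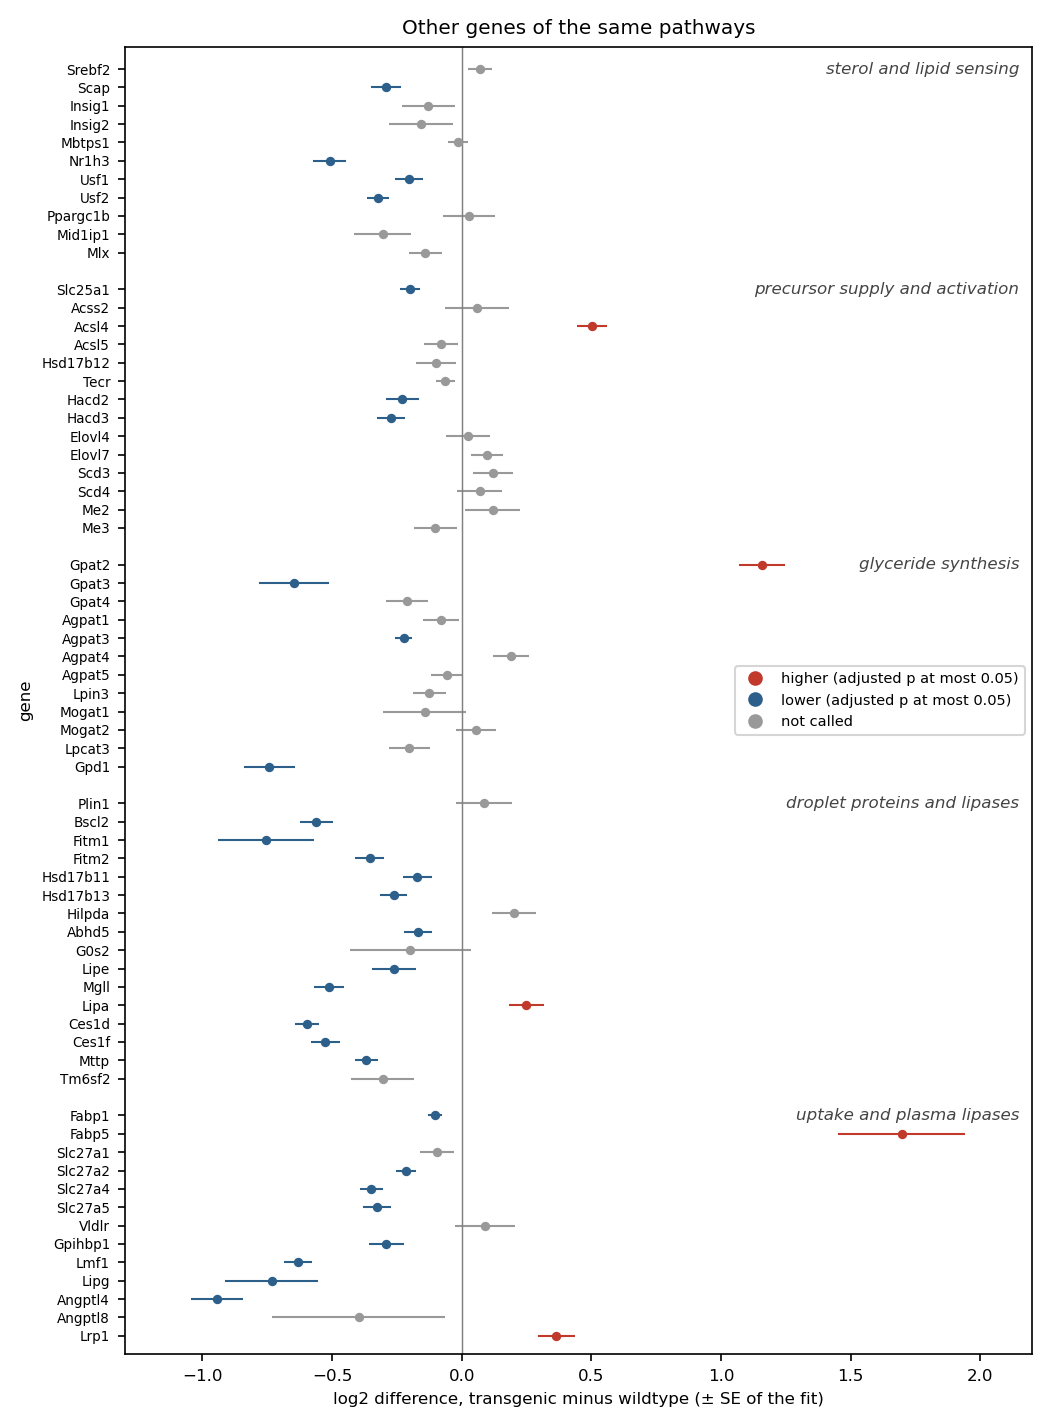
Difference between transgenic and wildtype arrays (x axis, log2) for the measured genes of the same pathways outside the 36, by sublist, with standard errors and the limma call in colour. Of 66 genes 29 are called lower and 5 higher, Fabp5 (1.70) and Gpat2 (1.16) being farthest up and Angptl4 (-0.94) farthest down.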

How the data were processed

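Per the labels' protocols, liver RNA of 16 samples (7 Pdgf-c transgenic and 9 wildtype by their titles) was measured on Affymetrix Mouse Gene 1.0 ST chips. The deposited values were made by the authors with GCRMA, a background correction and summary by probe sequence, per the submitters' processing notes, and were used as log2 intensities, a scale read from their range of 0.71 to 14.7. Dim rows are drawn towards a floor by this method, which makes folds of dim genes less certain. The version, scan dates and batches are not given in the sources used here, and scanner files were not analysed here. Every column belonged to a sample.

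Of 35557 rows 21789 carried 1 gene symbol in the platform annotation, 1621 carried several and 12147 were not listed. The brightest single-symbol row over all arrays stood for each of 19938 genes. The comparison was fitted in R 4.3.3 with limma 3.58.1 (lmFit, eBayes with trend, two-sided, 14 residual degrees of freedom), unfiltered, with Benjamini-Hochberg adjustment over all rows and a threshold of 0.05. The fit was tested on simulated data. Pairs and correlations used exact permutation tests in Python 3.11.15, and figures matplotlib 3.10.9. Promoter windows came from RefSeq's GRCm38.p6 table.

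All 36 members are named, with every row of those that have several. Of the related genes, the 6 largest rises and falls among the calls and 7 fixed genes are named, and of each marker list the largest call. One gene was taken off the related list and is not reported here, and 66 of the remaining 71 had a usable row. Members and lists were chosen with earlier results of these data known. Alternatives were quantile normalization, centring, filters, a floor, row means, no trend, array weights, a block on the replicate number, and each array left out in turn.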

Additional observations from a re-analysis of the deposited data

Results flagged for a closer look

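In 4 of 72 groups of values (36 genes in each of the 2 groups) the highest or lowest array lay far from its neighbours by Dixon's criterion, a rate that chance gives in about 1 group in 20. Acacb read 7.11 in wildtype array 1, below the next lowest wildtype array at 7.76. Elovl5 read 10.74 in wildtype array 9, above the next array at 10.37. Scd2 read 7.09 in transgenic array 6, above the next at 6.66. Cideb read 11.63 in wildtype array 4, above the next at 11.50. The rises of Acacb and Scd2 and the fall of Cideb kept their calls without these arrays.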

How the results depend on the processing

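Of the 18 called lipid genes 12 kept the call in all 25 alternatives, 6 (Srebf1, Mlxipl, Fads1, Fads2, Dgat1 and Pnpla3) lost it in at least 1, and none changed sign. Of the uncalled genes 6 (Gpam, Agpat2, Dgat2, Plin2, Plin3 and Plin5) passed in at least 1. Leaving out 1 array at a time gave 11 to 14 lipid genes higher and 4 to 6 lower. Without transgenic array 1 and wildtype array 9 together the count of lipid genes lower was 3 in place of 5, as Srebf1 and Dgat1 no longer passed, and 13 were higher, with Plin3 called in place of Pnpla3. With arrays centred on their medians 4688 rows were lower in place of 2936, and 2873 higher in place of 3785. With quantile normalization the calls over all genes were 2230 higher and 2867 lower.

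The replicate numbers did not pair the samples: residuals of same-numbered arrays correlated at -0.02 to 0.09, and none of 7 pairs was the best match. Transgenic arrays 6 and 7 both matched wildtype array 9 best, and transgenic arrays 1 and 5 both matched wildtype array 4. On the second principal component transgenic 6, transgenic 7 and wildtype 9 lay at -12.8, -25.0 and -54.4. Transgenic 1, transgenic 5 and wildtype 4 lay there at 28.8, 9.24 and 17.6. An array effect shared across the groups was not tested. With the replicate number as a block 11 lipid genes were higher and 5 lower, related genes were 5 higher and 25 lower, and over all rows 3487 were higher and 2237 lower. Array values carry no counting depth, and 16 arrays limit the precision.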

Other observations

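Several lipid genes took their extreme transgenic values in the same arrays, which was seen in the values and not tested. Transgenic array 6 was the highest of its group for Pparg (8.45), Cd36 (8.62), Cidec (6.87), Elovl5 (10.94) and Scd2 (7.09), and array 7 was second for the first 4 of these (8.08, 8.14, 6.40 and 10.73). Transgenic array 1 was the lowest for Srebf1 (9.93), Me1 (10.32), Elovl5 (9.93) and Plin3 (7.92). Arrays 5, 6 and 7 had the 3 lowest values of Elovl6 (10.40 to 10.47) and of Plin5 (7.66 to 7.71). They also had the 3 highest of Elovl3 (8.59 to 8.93) and of Plin2 (10.56 to 11.06). Among the wildtype arrays, array 1 was the lowest for several genes that rose, also not tested. These were Acaca (8.41), Acacb (7.11), Fasn (10.47), Elovl6 (9.07), Scd1 (11.99), Fads1 (11.04), Fads2 (11.61) and Fabp4 (6.33). Scd2, Lpl, Plin4, Pnpla3 and Mlxipl had their lowest wildtype value elsewhere. Wildtype array 1 was also lowest for Me1 (11.10) and Elovl3 (8.73), which fell, and for Thrsp, Acly, Elovl5 and Cd36. Without this array 12 lipid genes were higher in place of 13.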
